A study of Mus musculus with 88 samples.

Results

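The genes described here encode the core of calcium/calmodulin-dependent protein kinase II (CaMKII) signalling. They are the 4 CaMKII subunit genes Camk2a, Camk2b, Camk2d and Camk2g, the CaMKII inhibitor gene Camk2n1, and the calmodulin genes Calm2 and Calm3. They were chosen by gene symbol, through the GENCODE vM21 annotation, and are 7 of the 53749 gene IDs in each count table. All 7 were read in each of the 20 groups of RNA libraries.

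The mice were male C57BL/6J wild types, 4 months old. In contextual fear conditioning (CFC) an animal learns to link a new context with a foot shock, and tissue was taken 10 minutes (CFC10) or 30 minutes (CFC30) after placement in the context. Naive mice stayed in the home cage. Fixed nuclei of the hippocampus (HIP, 4 replicates per group) and the medial prefrontal cortex (mPFC, 3 replicates per group) were sorted on NeuN, a neuronal nuclear protein, into NeuN+ and NeuN- fractions, and total nuclear RNA was sequenced. In a separate experiment, mice received corticosterone (2 mg/kg, a water-soluble complex) or saline and were killed 30 minutes later. Their hippocampal nuclei were sorted into 4 populations: NeuN+ (neurons), GFAP+ (astrocytes), PU.1+ (microglia) and 3X-, with 4 replicates per group. The 3X- nuclei lacked all 3 markers and were enriched for oligodendrocytes. γH2AX, a histone mark of chromatin around DNA double-strand breaks, was mapped by ChIP-Seq 30 minutes after CFC and in naive mice. Each ChIP replicate combined nuclei of 3 animals, which were not sorted by cell type. The RNA kit version differed between HIP and mPFC, so levels are not compared between regions.

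CaMKII is a large ring of subunits that calcium-loaded calmodulin switches on. Once active it phosphorylates itself, and it can then stay active after the calcium signal has ended. The alpha subunit (Camk2a) and the beta subunit (Camk2b, which also binds actin) predominate in forebrain neurons, where they act at excitatory synapses during long-term potentiation. The delta and gamma subunits (Camk2d and Camk2g) are found in many tissues, and gamma CaMKII has been described as a carrier of calmodulin to the nucleus in neurons. The product of Camk2n1 binds the active kinase and inhibits it. Calm2 and Calm3 encode an identical calmodulin protein from separate loci.

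Promoter sequence was at hand for 3 of the 7 genes, Camk2b, Camk2d and Calm3. The 250 bases before the RefSeq start site are shown because the HIP γH2AX peak covers the whole window of Camk2b and a peak edge lies inside the window of Calm3 in both regions, while Camk2d has no peak (RefSeq, GRCm38.p6, 5′ to 3′ on the strand of the gene). The windows are chr11:6065749-6065998 on the minus strand for Camk2b, chr7:16924033-16924282 on the minus strand for Calm3 and chr3:126596701-126596950 on the plus strand for Camk2d. Capitals mark the GC box GGGCGG in Camk2b and Camk2d (on either strand, so also CCGCCC) and the CRE half-site TGACG in Calm3.
Camk2b: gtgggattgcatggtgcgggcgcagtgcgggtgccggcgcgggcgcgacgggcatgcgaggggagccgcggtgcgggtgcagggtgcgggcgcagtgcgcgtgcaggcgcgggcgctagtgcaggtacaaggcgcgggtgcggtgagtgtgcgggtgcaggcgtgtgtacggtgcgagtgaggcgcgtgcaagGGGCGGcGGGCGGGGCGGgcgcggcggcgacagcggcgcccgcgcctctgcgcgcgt
Calm3: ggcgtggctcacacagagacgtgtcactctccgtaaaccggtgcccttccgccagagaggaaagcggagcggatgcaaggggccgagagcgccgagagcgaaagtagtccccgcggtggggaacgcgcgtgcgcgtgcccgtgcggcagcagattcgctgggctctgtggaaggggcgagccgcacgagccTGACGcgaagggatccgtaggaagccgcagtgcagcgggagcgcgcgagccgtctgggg
Camk2d: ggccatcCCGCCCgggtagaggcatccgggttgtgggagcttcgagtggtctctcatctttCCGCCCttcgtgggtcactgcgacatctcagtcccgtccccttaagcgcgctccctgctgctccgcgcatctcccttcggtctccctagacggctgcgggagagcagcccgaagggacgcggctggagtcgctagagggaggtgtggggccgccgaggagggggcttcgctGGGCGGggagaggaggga

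The windows were rich in G and C, at 78.4% in Camk2b, 69.2% in Calm3 and 68.4% in Camk2d, against a median of 52.4% over 32851 mouse promoters of this length. Camk2b held 3 GC boxes that began 57, 50 and 45 bases before the start site, the last pair overlapping by 1 base. Camk2d also held 3, and Calm3 held none. A GC box on either strand was found in 32.7% of all promoters. Calm3 held 1 CRE half-site, which began 59 bases before its start site; 17.8% of all promoters hold this half-site. The whole CRE TGACGTCA (1.55% of promoters), the E-box CACGTG (6.02%), the TATA box TATAAA (12.4%) and the palindromic glucocorticoid response element (0.00913%) had no match in any of the 3 windows. These are matches of letters only.

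The γH2AX peaks lay at 5 of the 7 genes in HIP and at 4 of the 7 in mPFC, where 1.97% and 1.88% of all 21891 protein-coding genes were touched by a peak. Camk2a, Camk2n1, Calm2 and Calm3 had a peak in both regions, and Camk2b had one in HIP only. No peak touched Camk2d or Camk2g in either region. Each peak comes from merged replicates, and the lists of 282 HIP and 260 mPFC peaks join naive and CFC30 calls and carry no height, so neither a replicate error nor a change after CFC can be read from them. Per condition, 3 replicates were merged in HIP and 4 in mPFC. The part of this in differences of peaks between regions was not tested. With a stricter rule, under which a peak must cover at least 50% of the gene, the same genes were counted.

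At Camk2a (chromosome 18, 60925618 to 60988152, plus strand) the whole gene lay inside the peak. The mPFC peak spanned 88350 bp and ended 25704 bp past the 3′ end of the gene, and the HIP peak spanned 71566 bp and ended 8927 bp past it. Both began within 111 bp before the 5′ end. In mPFC the peak also held 18477 of the 18843 bp of the neighbouring gene Slc6a7, against 1700 bp in HIP. These were wide peaks, since the median width was 16504 bp in mPFC and 15425 bp in HIP.

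At Camk2b (chromosome 11, 5969644 to 6066362, minus strand) the HIP peak of 54762 bp lay wholly inside the gene. It began 176 bp downstream of the 5′ end of the gene model and covered 56.62% of the gene, all of it toward the 5′ end, and the 3′ part of the gene lay outside it. All 250 bases of the promoter window printed above lay in this peak, because the RefSeq start site is farther into the gene than the GENCODE 5′ end, and the edge of the peak was 438 bases upstream of the RefSeq start.

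The 3 short genes were covered almost entirely. The peak at Camk2n1 (chromosome 4, 138454314 to 138460123) spanned 10072 bp in mPFC and 7198 bp in HIP. At Calm2 (chromosome 17, 87433412 to 87446935) the peak ended on the same base upstream of the gene in both regions and spanned 19868 bp in mPFC and 19419 bp in HIP. At Calm3 (chromosome 7, 16915379 to 16924114) it spanned 11665 bp in mPFC and 11359 bp in HIP, and its upstream edge lay 31 and 48 bases before the RefSeq start site, so the CRE half-site was outside the peak in both regions. Camk2n2, the gene of another CaMKII inhibitor, had no peak in either region.

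**Figure D1:**
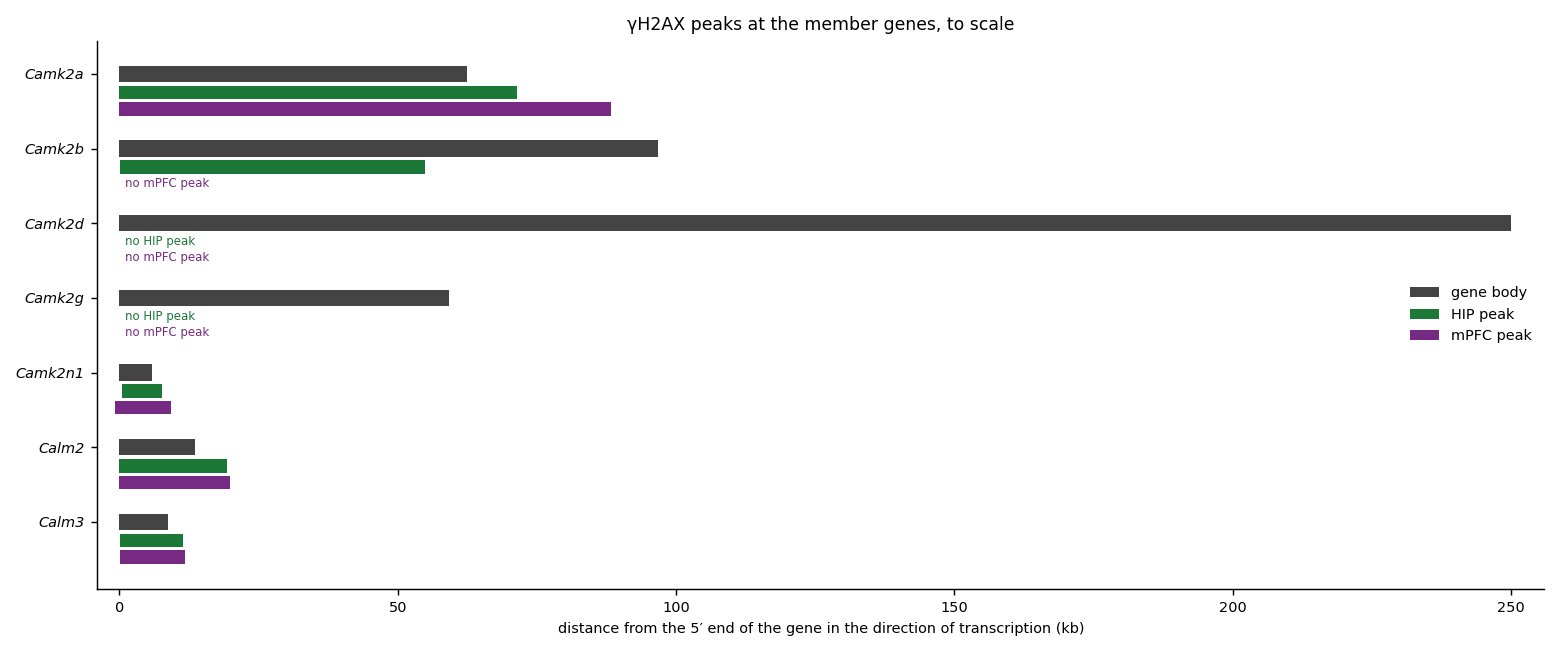
Gene bodies (grey) and γH2AX peaks of HIP (green) and mPFC (purple) at the 7 genes, drawn to scale as distance from the 5′ end in the direction of transcription (kb). The peaks at Camk2a, Camk2n1, Calm2 and Calm3 run past the 3′ end, the HIP peak at Camk2b stops inside the gene, and Camk2d and Camk2g have no peak.

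The RNA libraries held between 5935395 and 18271372 counted reads. Counts cover whole gene bodies, introns included, so they describe nuclear RNA that is partly unspliced. They are given as CPM, the count scaled to a fixed library total, and as FPKM (CPM per kilobase of gene body) where genes are compared with each other. Of 74 RNA libraries, 73 were used: replicates 3 and 4 of naive HIP NeuN- nuclei held identical counts and were counted as 1 sample, which leaves 3 replicates in that group. The check of the conditioning gave the response of early response genes in NeuN+ nuclei. Arc, an immediate early gene of synapses, was at 65.6 ± 7.0 CPM in mPFC CFC10 and 4.66 ± 1.60 CPM in naive (SD, n = 3 each), and all 5 listed early response genes rose at CFC10 in NeuN+ nuclei of both regions. Fkbp5, a glucocorticoid target, rose with corticosterone in all 4 populations, by 0.55 on the log2 scale in NeuN+ and by 2.05 to 2.44 in the others. Of the 5 listed glucocorticoid response genes, 3 rose in GFAP+, 5 in PU.1+ and 4 in 3X- nuclei, and none fell. In NeuN+ nuclei 4 of the 5 were tested, of which 1 rose and 1 fell, with a list median of -0.23. The gene that fell was Per1, at 27.35 ± 3.49 CPM with corticosterone and 36.26 ± 4.47 CPM with saline (SD, n = 4 each). The sums of cell type markers followed the sorts: with saline, 5 pan-neuronal markers summed to 5008.9 to 5167.8 CPM in NeuN+, 6 astrocyte markers to 11112.9 to 13949.1 CPM in GFAP+, 6 microglial markers to 4586.7 to 4972.7 CPM in PU.1+ and 6 oligodendrocyte markers to 9350.0 to 9859.8 CPM in 3X- nuclei, each above the other 3 populations. In these bulk libraries, fewer nuclei of a type and less RNA per nucleus cannot be told apart.

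Among the CaMKII subunits, naive HIP NeuN+ nuclei carried mostly Camk2a. Per gene length, Camk2a was at 15.9 ± 0.30 FPKM, Camk2b at 7.08 ± 0.086, Camk2g at 1.93 ± 0.087 and Camk2d at 0.189 ± 0.018 FPKM (SD, n = 4). Calm2 stood at 6.69 ± 0.54 FPKM, Calm3 at 3.91 ± 0.61 and Camk2n1 at 2.13 ± 0.36 FPKM. In naive mPFC NeuN+ nuclei the order of the subunits was the same, with Camk2a at 12.9 ± 0.72, Camk2b at 3.74 ± 0.047, Camk2g at 2.75 ± 0.038 and Camk2d at 0.524 ± 0.012 FPKM (SD, n = 3). No pair of these subunits overlapped between libraries within either region. In NeuN- nuclei the order was led by Camk2g, at 4.81 ± 0.21 FPKM in HIP and 5.02 ± 0.11 FPKM in mPFC (SD, n = 3 each). The gene-body length of Camk2d is 250025 bp, of Camk2n1 5810 bp, and the share of intronic reads behind each FPKM was not measured.

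Camk2a separated the fractions most clearly together with Camk2b. Naive HIP libraries held 990.0, 967.1, 1012.1 and 996.6 CPM of Camk2a in NeuN+ nuclei, against 89.19, 152.5 and 86.81 CPM in NeuN- nuclei. Camk2b was at 692.8, 689.6, 679.8 and 675.1 CPM in NeuN+ and at 45.73, 77.16 and 48.96 CPM in NeuN- nuclei. The groups lay far apart for both genes, and replicate 2 of the NeuN- nuclei was the highest of its group in both. The log2 fold change of NeuN+ over NeuN- was 3.65 ± 0.15 (SE) for Camk2a and 4.05 ± 0.13 for Camk2b in HIP, and 4.12 ± 0.22 and 4.38 ± 0.12 in mPFC. Pan-neuronal markers moved in the same libraries: naive NeuN- nuclei held 7.54% of the NeuN+ sum of 5 pan-neuronal markers in HIP and 3.22% in mPFC, while Camk2a stood at 11.0% and 8.21% of its NeuN+ level and Camk2b at 8.37% and 6.85%. The sum of 6 excitatory neuron markers stood at 18.8% of its NeuN+ level in HIP and 5.72% in mPFC, and that of 6 inhibitory neuron markers at 30.9% and 42.6%. The part of neuronal RNA in the NeuN- values was not tested.

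Camk2d and Camk2g were lower in neurons. Camk2d was at 42.54, 47.33, 53.55 and 45.88 CPM in naive HIP NeuN+ nuclei, against 184.7, 163.7 and 183.2 CPM in NeuN- nuclei, a log2 fold change of -1.42 ± 0.07. Camk2g gave 109.4, 121.1, 111.2 and 114.1 CPM in NeuN+ against 286.9, 271.0 and 296.1 CPM in NeuN- nuclei, a log2 fold change of -0.84 ± 0.05. In mPFC the differences were smaller, at -0.15 ± 0.05 for Camk2d (adjusted p = 0.0221) and -0.36 ± 0.05 for Camk2g (adjusted p = 2.63e-05), and the fractions did not overlap for either gene. In mean CPM, which is scaled by library totals, mPFC NeuN- nuclei held 157% of the NeuN+ level of Camk2d and 182% of that of Camk2g. In HIP these values were 374% and 250%. The size of the difference in mPFC thus depends on the scaling. The Camk2d call in mPFC was lost with DESeq2 (adjusted p = 0.067) and without NeuN- replicate 2 (0.0927) or 3 (0.0508) or NeuN+ replicate 1 (0.0639) or 3 (0.0527).

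Calm2 and Calm3 were higher in NeuN+ nuclei of both regions, by 1.17 ± 0.07 and 0.80 ± 0.12 in HIP and by 0.96 ± 0.07 and 0.78 ± 0.11 in mPFC on the log2 scale, although single libraries of the fractions overlapped for Calm3. Camk2n1 was called in HIP at 0.44 ± 0.13 (adjusted p = 0.00509) and not in mPFC at 0.27 ± 0.16 (adjusted p = 0.137). The fractions overlapped for Camk2n1 in both regions, and its direction turned when libraries were scaled by their totals instead of by TMM (trimmed mean of M values), to -0.04 in HIP and -0.23 in mPFC. That scaling moved the median over all genes to -0.53 in HIP and -0.55 in mPFC, from -0.05 in both with TMM. By edgeR's quasi-likelihood test, 73.1% of the genes tested in HIP and 72.3% in mPFC differed between the fractions at an adjusted p under 0.05, and 7 of 7 and 6 of 7 of these genes did.

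The sorted populations of saline-treated mice divided the glial levels further. Camk2a was at 1324.8, 1271.1, 1233.0 and 1234.3 CPM in NeuN+ nuclei, at 477.8, 402.8, 553.0 and 590.3 CPM in GFAP+, at 282.5, 314.9, 451.4 and 400.2 CPM in PU.1+ and at 132.4, 116.4, 164.4 and 146.6 CPM in 3X- nuclei. Only GFAP+ and PU.1+ nuclei overlapped. Camk2b followed the same order, with means of 817.3 ± 40.9, 179.8 ± 29.4, 130.4 ± 20.3 and 88.95 ± 9.09 CPM (SD, n = 4 each). As shares of the NeuN+ level, Camk2a stood at 40.0% in GFAP+, 28.6% in PU.1+ and 11.1% in 3X- nuclei, and Camk2b at 22%, 16.0% and 10.9%. The sum of the 5 pan-neuronal markers stood at 21.9%, 16.5% and 9.4%, and the sum of the 6 excitatory neuron markers at 42.6%, 38.6% and 19.8%; the part of neuronal RNA in these levels was not tested.

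Camk2g was highest in GFAP+ nuclei and Camk2d in PU.1+ nuclei. Camk2g read 456.0, 552.5, 471.5 and 472.2 CPM in GFAP+ nuclei, against 117.4 to 128.8 CPM in PU.1+, 106.3 to 114.6 CPM in NeuN+ and 74.70 to 84.08 CPM in 3X- nuclei. GFAP+ over PU.1+ was 2.10 ± 0.07 on the log2 scale and GFAP+ over 3X- 2.53 ± 0.07. NeuN+ over PU.1+ was 0.32 ± 0.07 with TMM and -0.18 (adjusted p = 0.0165) when scaled by library totals, so the order of these 2 populations depends on the scaling. Camk2d reached 577.0, 541.5, 512.9 and 488.5 CPM in PU.1+ nuclei, against 144.3 to 164.7 CPM in GFAP+, 70.05 to 80.44 CPM in 3X- and 38.75 to 52.34 CPM in NeuN+ nuclei, with no overlap between any of the 4. PU.1+ over 3X- was 2.61 ± 0.08.

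Calm2 was also highest in PU.1+ nuclei, at 133.5, 143.0, 151.0 and 140.9 CPM, followed by NeuN+ (72.31 to 82.24), GFAP+ (50.02 to 67.30) and 3X- nuclei (31.07 to 45.73 CPM), and no neighbours in this order overlapped. By mean CPM, Calm3 and Camk2n1 were highest in GFAP+ nuclei, at 65.36 ± 11.54 and 34.17 ± 5.22 CPM. PU.1+ nuclei came next for both, at 48.51 ± 12.35 and 23.99 ± 2.76 CPM, then NeuN+ at 43.01 ± 4.56 and 14.31 ± 1.94 CPM, then 3X- at 35.29 ± 3.18 and 11.81 ± 1.23 CPM (SD, n = 4). For Calm3, each population overlapped with the next in this order, and its NeuN+ over PU.1+ value changed from 0.32 with TMM (adjusted p = 0.0272) to -0.18 with library totals. That call was also lost with DESeq2 (adjusted p = 0.12), with RLE scaling (0.0892) and without PU.1+ replicate 1 (0.116) or 2 (0.102) or NeuN+ replicate 2 (0.0554) or 4 (0.0863). For Camk2n1, NeuN+ and 3X- nuclei overlapped. Not every step of this order passed the main test. Calm3 was not called for NeuN+ over GFAP+ or for PU.1+ over 3X-, and Camk2n1 was not called for NeuN+ over PU.1+.

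Between populations, 64.4% of the genes tested differed for NeuN+ over GFAP+, 72.3% for NeuN+ over PU.1+, 65.1% for NeuN+ over 3X-, 68% for GFAP+ over PU.1+, 54.7% for GFAP+ over 3X- and 63.4% for PU.1+ over 3X-. Of the 7 genes described here, 6, 6, 7, 7, 7 and 6 differed in the same order. Scaling by library totals moved the median over all genes by more than 0.1 in 4 of these pairs, to -0.34, -0.53 and -0.34 for NeuN+ over GFAP+, PU.1+ and 3X- and to 0.19 for PU.1+ over 3X-.

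**Figure D2:**
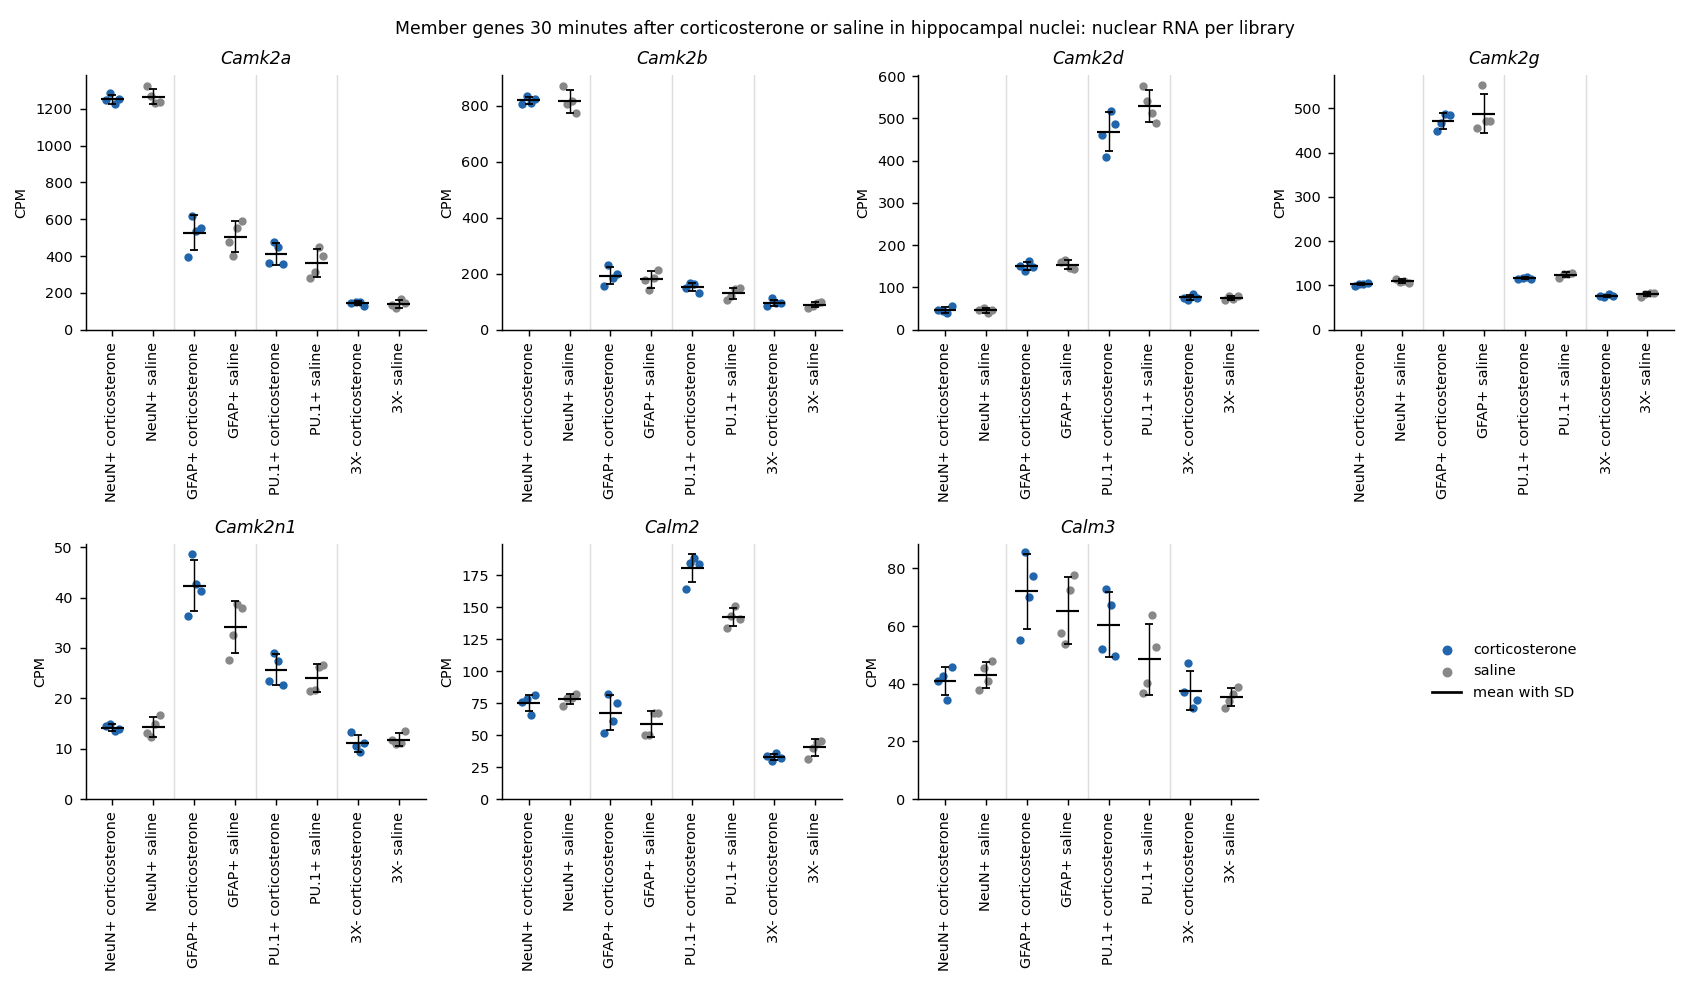
CPM of the 7 genes in each library of the 4 hippocampal populations, corticosterone (blue) beside saline (grey), with the group mean and SD (n = 4). NeuN+ nuclei are highest for Camk2a and Camk2b, GFAP+ for Camk2g, PU.1+ for Camk2d and Calm2, and only Calm2 in PU.1+ nuclei passed the test between treatments.

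Camk2g fell after CFC. In mPFC NeuN+ nuclei it was at 118.6, 113.8 and 125.3 CPM in CFC30 libraries, against 165.3, 160.9 and 162.6 CPM in naive libraries. The groups did not overlap, and the change of -0.43 ± 0.05 on the log2 scale (a ratio of 0.741, adjusted p = 2.14e-06) was the largest among these genes after CFC or corticosterone. At CFC10 the libraries held 131.6, 149.3 and 144.3 CPM, between the CFC30 and the naive values, with a change against naive of -0.20 ± 0.05 (adjusted p = 0.011). Without CFC10 replicate 1 that call was lost, at -0.15 (adjusted p = 0.0698). CFC30 against CFC10 gave -0.23 ± 0.05 (adjusted p = 0.0268), and this call was lost without CFC10 replicate 2 or 3 or CFC30 replicate 1 or 2, with adjusted p of 0.229, 0.105, 0.103 and 0.189.

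Camk2g in HIP NeuN+ nuclei was at 102.6, 89.77, 93.08 and 94.22 CPM in CFC30 libraries, against 109.4, 121.1, 111.2 and 114.1 CPM in naive libraries. All 4 CFC30 libraries were below all naive ones, a change of -0.28 ± 0.05 (adjusted p = 0.000792). CFC10 libraries lay close together at 105.7, 106.8, 104.7 and 104.5 CPM, also below every naive library, at -0.15 ± 0.04 (adjusted p = 0.0556, which missed the threshold).

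The NeuN- nuclei gave the same sign. In mPFC, Camk2g read 233.1, 247.0 and 231.5 CPM in CFC30, against 299.9, 289.7 and 301.7 CPM in naive NeuN- libraries, without overlap and with a change of -0.30 ± 0.06 (adjusted p = 0.00529). CFC10 libraries were at 258.7, 278.7 and 282.2 CPM, which gave -0.12 ± 0.06 against naive (adjusted p = 0.322). In HIP the groups overlapped: CFC30 NeuN- libraries were at 231.5, 255.4, 217.2 and 271.7 CPM, against 286.9, 271.0 and 296.1 CPM in naive ones, with -0.22 ± 0.08 (adjusted p = 0.138). The fold change of Camk2g was below 0 in all 12 comparisons with naive or saline, and 4 of the 12 passed the test, all of them after CFC. With corticosterone none passed, and the sign did not hold in 2 populations. In GFAP+ nuclei it turned to 0.0755 without saline replicate 2 and to 0.0163 without corticosterone replicate 1. In 3X- nuclei it turned to 0.0007 without corticosterone replicate 2. The CFC comparisons of a fraction share their naive libraries.

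Calm2 rose in mPFC NeuN+ nuclei. The calmodulin genes have closely similar coding sequences, and how reads shared between such copies were counted is not given, so the values of Calm2 and Calm3 are uncertain to that extent. Calm2 was at 79.71, 84.78 and 85.71 CPM at CFC10, against 59.33, 63.81 and 65.67 CPM in naive libraries, with no overlap and a change of 0.40 ± 0.06 (a ratio of 1.32, adjusted p = 2.1e-05). At CFC30 its libraries were at 73.14, 74.12 and 73.66 CPM, again above all naive libraries, at 0.25 ± 0.06 (adjusted p = 0.00198). The CFC30 libraries lay below all CFC10 libraries, but the difference of -0.16 ± 0.05 did not pass (adjusted p = 0.16). Calm2 in HIP NeuN+ nuclei was at 97.86, 122.8, 95.45 and 99.34 CPM at CFC10, against 86.67, 94.60, 82.20 and 98.26 CPM in naive libraries, an overlap, with 0.16 ± 0.07 (adjusted p = 0.208).

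Camk2a was slightly higher after CFC in neurons. In mPFC NeuN+ nuclei it was at 883.2, 897.2 and 870.8 CPM at CFC30, against 767.6, 800.1 and 856.4 CPM in naive libraries, and passed the test at 0.15 ± 0.05 (a ratio of 1.11, adjusted p = 0.0368). This call was lost without naive replicate 1 or 2 or CFC30 replicate 1 or 2 (adjusted p of 0.169, 0.0972, 0.0986 and 0.105), with DESeq2 (0.0637) and with scaling by library totals (0.0623). In HIP NeuN+ nuclei it read 1172.9, 1125.5, 1087.2 and 1018.5 CPM at CFC30, against 990.0, 967.1, 1012.1 and 996.6 CPM in naive libraries, without overlap but with an adjusted p of 0.0638 at 0.14 ± 0.05. DESeq2 and scaling by library totals called it there, with adjusted p of 0.0309 and 0.0351.

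Camk2b, Camk2d, Camk2n1 and Calm3 passed in no comparison with naive. Camk2b in NeuN+ nuclei averaged 680.6 ± 45.4 CPM in HIP CFC30 and 684.3 ± 8.3 CPM in naive libraries (SD, n = 4 each), and 372.2 ± 9.7 CPM in mPFC CFC30 and 361.5 ± 4.5 CPM in naive libraries (SD, n = 3 each). Their log2 changes of -0.02 ± 0.05 and 0.06 ± 0.05 were within 2 SE of 0. Camk2d in mPFC NeuN+ nuclei was at 120.2, 110.7 and 125.9 CPM at CFC10, against 128.4, 134.2 and 130.1 CPM in naive libraries, below all of them, at -0.14 ± 0.06 (adjusted p = 0.0976). Camk2d in HIP NeuN+ nuclei passed the filter on low values (a group mean over 0.2 FPKM) through the CFC10 group only (0.216 FPKM, against 0.189 in naive).

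Camk2n1 and Calm3 were read at low counts and spread widely. Camk2n1 in HIP NeuN+ nuclei was at 14.81, 18.50, 14.10 and 14.50 CPM at CFC10, against 13.18, 14.54, 9.66 and 12.08 CPM in naive libraries, with 0.26 ± 0.12 (adjusted p = 0.201). In mPFC NeuN+ nuclei it was at 27.21, 28.71 and 31.95 CPM at CFC10, against 19.46, 24.15 and 30.58 CPM in naive ones. There, leaving out naive replicate 3 brought Camk2n1 past the threshold, at 0.42 (adjusted p = 0.0041) at CFC10 and 0.33 (adjusted p = 0.0144) at CFC30. Calm3 in HIP NeuN+ nuclei was at 42.44, 45.51, 38.92 and 40.12 CPM at CFC10, against 27.61, 38.98, 32.09 and 37.94 CPM in naive libraries, at 0.24 ± 0.10 (adjusted p = 0.183).

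Read against all genes, 4.86% of the genes tested passed in HIP NeuN+ nuclei at CFC10 and 8.56% at CFC30, where 0 and 1 of these 7 genes did, and 14.4% and 24.7% passed in mPFC NeuN+ nuclei, where 2 and 3 did. In NeuN- nuclei 0.345% and 2.38% passed in HIP, with 0 and 0 of the 7, and 1.71% and 5.85% in mPFC, with 0 and 1. CFC30 against CFC10 gave 0.298% in HIP NeuN+, 0.169% in HIP NeuN-, 1.29% in mPFC NeuN+ and 0.7% in mPFC NeuN- nuclei, and Camk2g in mPFC NeuN+ nuclei was the only one of the 7 that passed. The median log2 change of the 7 genes was 0.15 in HIP and 0.12 in mPFC NeuN+ nuclei at CFC10, and 0.01 and 0.06 at CFC30, while that of all genes lay within 0.01 of 0.

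Markers of other cells moved with the mPFC NeuN+ results. The sum of 6 oligodendrocyte markers was 120.2 to 156.0 CPM at CFC10 and 118.5 to 183.8 CPM at CFC30, against 64.33 to 86.24 CPM in naive NeuN+ libraries, and the sum of 6 astrocyte markers was 666.9 to 745.5 and 706.2 to 712.5 CPM, against 608.2 to 658.9 CPM. All 12 of these markers were read in every group. Pan-neuronal markers summed to 5970.3 to 6118.3 CPM at CFC30, against 6165.0 to 6369.0 CPM in naive NeuN+ libraries, and excitatory neuron markers to 508.6 to 533.6 CPM at CFC10, against 492.5 to 504.0 CPM. In mPFC NeuN- nuclei the sum of 6 microglial markers was 686.4 to 824.4 CPM at CFC30, against 860.5 to 879.5 CPM in naive libraries, and that of the oligodendrocyte markers 5201.3 to 5651.8 CPM against 4597.7 to 4969.6 CPM, while 4 oligodendrocyte precursor markers summed to 377.0 to 399.8 CPM against 402.4 to 480.7 CPM. The part of these shifts in the changes of Camk2g, Calm2 and Camk2a was not tested. In HIP NeuN+ nuclei the oligodendrocyte sums overlapped, at 103.9 to 141.3 CPM at CFC30 against 95.88 to 124.2 CPM in naive libraries, and the astrocyte sums too, at 283.5 to 307.5 against 278.0 to 343.5 CPM. The sum of 6 inhibitory neuron markers did not overlap there, at 97.01 to 114.3 CPM at CFC30 against 73.93 to 95.40 CPM in naive libraries, beside the fall of Camk2g; its part was not tested.

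**Figure D3:**
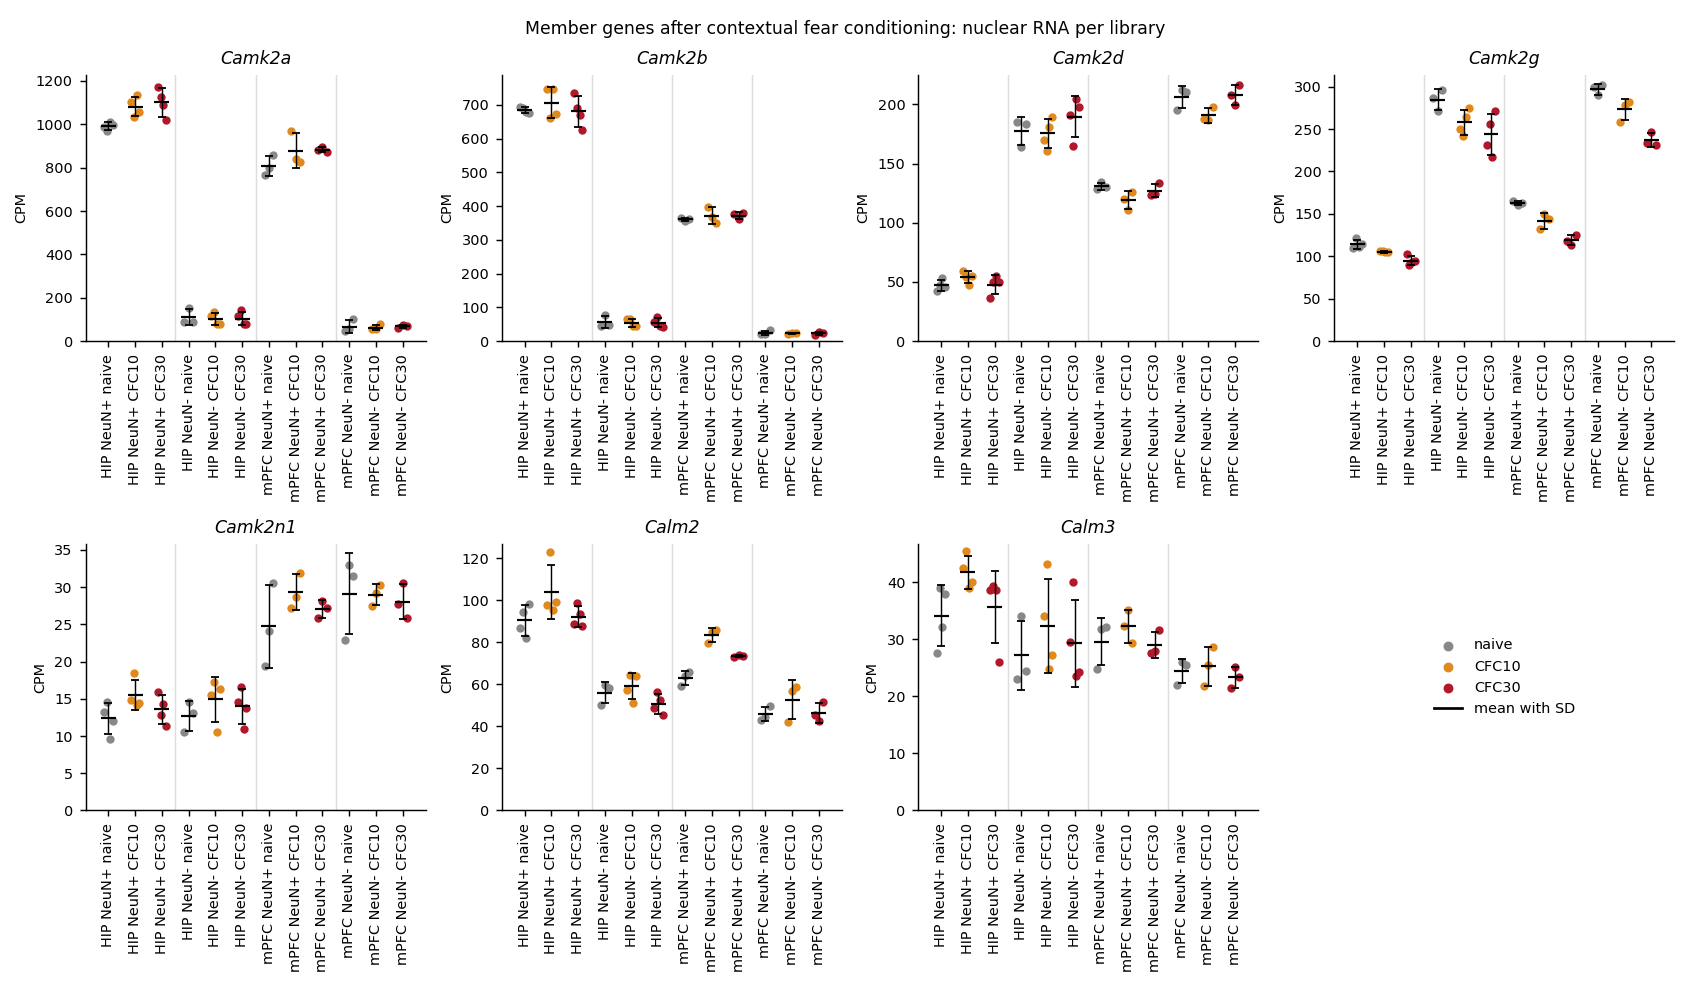
CPM of the 7 genes in each library by region, NeuN fraction and time (naive grey, CFC10 orange, CFC30 red), with the group mean and SD (n = 3 or 4). The mean of Camk2g is lower at CFC30 than in naive mice in each of the 4 fractions, but in HIP NeuN- nuclei the groups overlap and the test did not pass. Calm2 is higher in mPFC NeuN+ nuclei at CFC10 and CFC30.

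Whether a response differed between fractions or regions was tested as a difference of effects, and none of the 7 genes passed in any of the 11 such tests, by edgeR's quasi-likelihood test. For NeuN+ minus NeuN-, 0.0312% and 0.293% of all genes passed in HIP at CFC10 and CFC30, and 1.88% and 4.18% in mPFC. For mPFC minus HIP, 0.705% and 2.3% passed in NeuN+ nuclei. In NeuN- nuclei 0% passed at CFC10, where 895 genes had an unadjusted p under 0.05 and DESeq2 called 13, and 0.101% passed at CFC30. The change of Camk2g in NeuN+ nuclei at CFC30 was more negative in mPFC than in HIP by 0.16 ± 0.07 (SE), with an adjusted p of 0.318, and that of Calm2 at CFC10 was higher in mPFC by 0.23 ± 0.10, with an adjusted p of 0.469. Kit version goes with region in these tests.

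The balance of the subunits was followed as the share of each gene in the summed FPKM of Camk2a, Camk2b, Camk2d and Camk2g, a value that does not depend on library scaling. In HIP NeuN+ nuclei Camk2a made up 66.41%, 67.02%, 66.62% and 66.33% of the sum at CFC30, against 63.29%, 62.28%, 63.96% and 63.68% in naive libraries, a difference of 3.29 percentage points. At CFC10 the share was 64.39%, 65.11%, 65.22% and 65.45%, a difference from naive of 1.74 points. Neither time overlapped with naive, and the exact two-sided permutation test gave p = 0.0286 for each, the smallest it allows with 4 against 4, and 0.171 after adjustment over 12 comparisons.

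In mPFC NeuN+ nuclei the share of Camk2a was 68.85%, 69.99% and 67.95% at CFC30, against 63.41%, 64.84% and 66.11% in naive libraries, 4.14 points higher. At CFC10 it was 69.47%, 66.49% and 66.81%, or 2.80 points above naive. The groups again did not overlap, but 3 against 3 libraries cannot go below p = 0.1 in the exact test, and the adjusted p was 0.3 for both. Over the same groups Camk2g took 6.07 ± 0.34% of the sum at CFC30 and 7.69 ± 0.39% in naive HIP NeuN+ nuclei (SD, n = 4 each), and 9.82 ± 0.48% at CFC30 and 13.8 ± 0.59% in naive mPFC NeuN+ nuclei (SD, n = 3 each). The share of Camk2b was 26.6 ± 0.23% at CFC30 and 28.3 ± 0.49% in naive HIP, and 18.8 ± 0.49% and 18.8 ± 0.70% in mPFC. In NeuN- nuclei and in the 4 corticosterone comparisons the Camk2a shares overlapped between groups, and none of the 12 comparisons passed after adjustment. With these numbers of libraries none of them could have passed after adjustment over 12, so this says nothing about whether the shares differ.

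**Figure D4:**
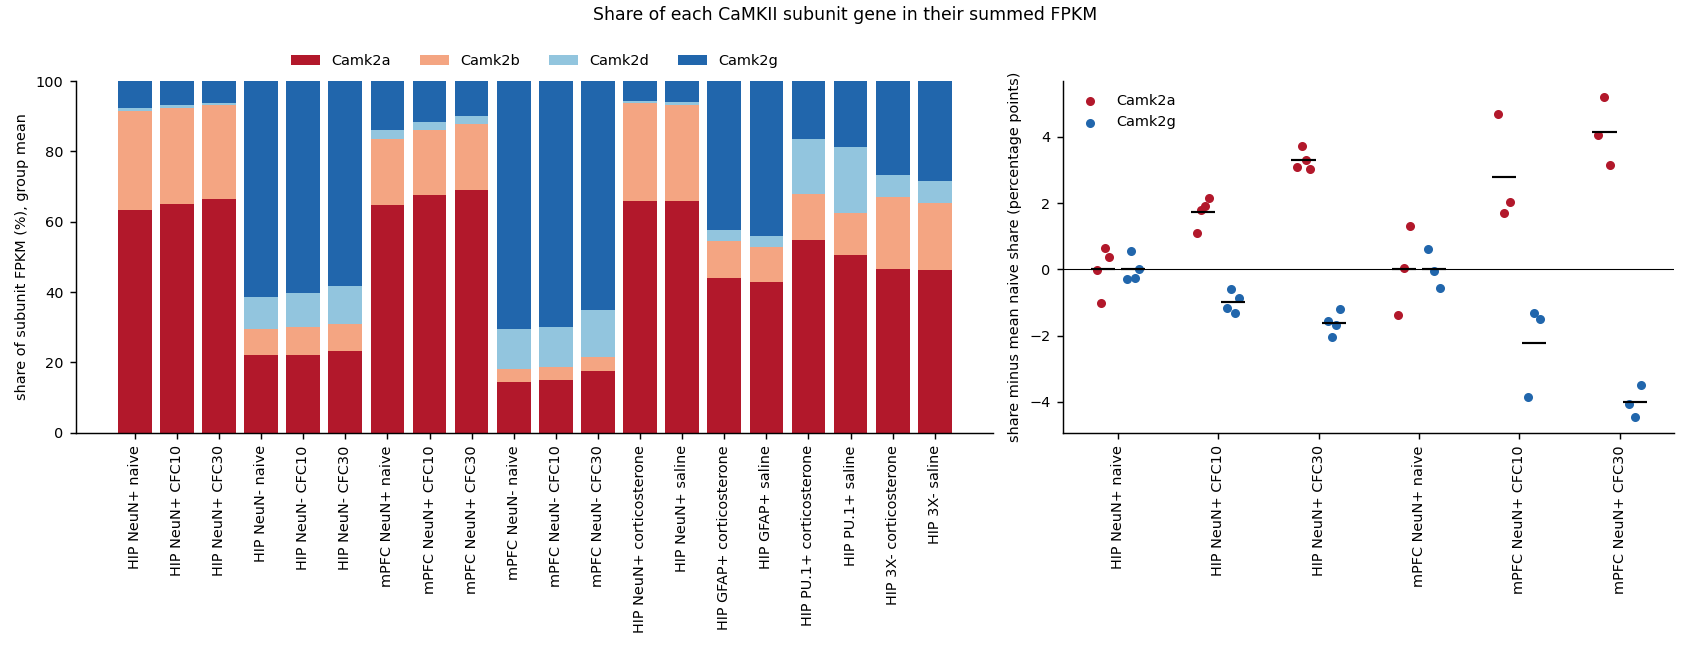
Left, mean share of each CaMKII subunit gene in their summed FPKM (%) in the 20 groups. Right, share of Camk2a (red) and Camk2g (blue) in each NeuN+ library minus the mean naive share of its region (percentage points), with group means as bars. Camk2a lies above and Camk2g below their naive values at CFC10 and CFC30 in both regions.

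Corticosterone changed 1 of the 7 genes. In PU.1+ nuclei Calm2 was at 164.2, 184.6, 188.7 and 183.9 CPM with corticosterone, against 133.5, 143.0, 151.0 and 140.9 CPM with saline. The groups did not overlap, and Calm2 rose by 0.38 ± 0.06 on the log2 scale (a ratio of 1.30, adjusted p = 0.000393). In the same libraries the 6 microglial markers summed to 4247.2 to 4507.5 CPM with corticosterone, against 4586.7 to 4972.7 CPM with saline, the 6 astrocyte markers to 904.5 to 1167.8 against 627.2 to 847.2 CPM, and the 5 pan-neuronal markers to 768.8 to 988.8 against 656.2 to 981.5 CPM. Calm2 was lower in GFAP+ and NeuN+ nuclei than in PU.1+ nuclei; the part of the marker shifts in its change was not tested.

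Calm2 in the other populations did not pass. It averaged 32.86 ± 2.58 CPM with corticosterone and 40.48 ± 6.73 CPM with saline in 3X- nuclei (SD, n = 4 each), a change of -0.26 ± 0.10 (adjusted p = 0.147) that passed at -0.37 (adjusted p = 0.00628) without saline replicate 1 and at -0.32 (adjusted p = 0.0453) without corticosterone replicate 3. In NeuN+ nuclei it averaged 75.14 ± 6.52 CPM with corticosterone and 78.02 ± 4.15 CPM with saline. The effect in PU.1+ minus that in NeuN+ nuclei was 0.40 ± 0.14, with an adjusted p of 0.211, so a difference between these populations was not shown.

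Camk2a and Camk2b barely differed with treatment in neurons. NeuN+ nuclei held 1245.4, 1285.4, 1227.0 and 1250.3 CPM of Camk2a with corticosterone, against 1324.8, 1271.1, 1233.0 and 1234.3 CPM with saline, a log2 change of 0.01 ± 0.04. Camk2b averaged 819.7 ± 13.4 CPM with corticosterone and 817.3 ± 40.9 CPM with saline (SD, n = 4 each), at 0.03 ± 0.04. Camk2n1 in GFAP+ nuclei was at 36.40, 48.70, 42.77 and 41.38 CPM with corticosterone, against 27.52, 32.49, 38.70 and 37.96 CPM with saline, an overlap, at 0.35 ± 0.11 (adjusted p = 0.156). Calm3 in PU.1+ nuclei had a change of 0.34 ± 0.15 (adjusted p = 0.248), which passed at 0.50 (adjusted p = 0.0393) without saline replicate 3. Camk2d was not tested in NeuN+ nuclei, where its mean FPKM was under 0.2 with both treatments.

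Of all genes tested, 2.06% passed with corticosterone in NeuN+, 2.93% in GFAP+, 7.81% in PU.1+ and 7.48% in 3X- nuclei, beside 0 of 6, 0 of 7, 1 of 7 and 0 of 7 of these genes. For the difference of effects against NeuN+ nuclei, 0.513% passed in GFAP+, 1.54% in PU.1+ and 2% in 3X- nuclei. Over the 12 comparisons with naive or saline, 8 of the 83 tested pairs of gene and comparison passed.

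**Figure D5:**
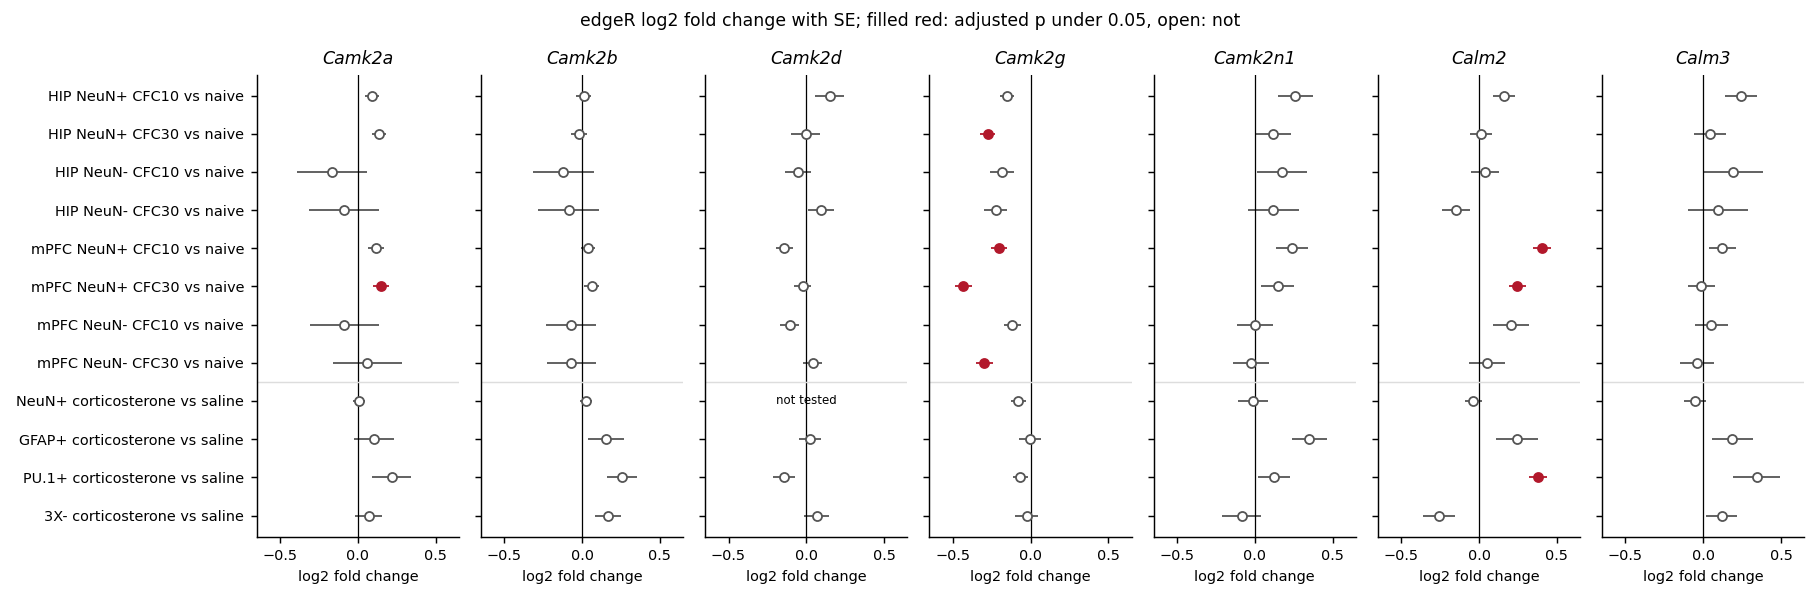
Log2 fold change from edgeR with SE for each of the 7 genes (columns) in the 8 CFC and 4 corticosterone comparisons (rows); filled red points have an adjusted p under 0.05. The filled points are Camk2g in 4 rows, all below 0, Calm2 in 3 rows and Camk2a in 1 row, all above 0.

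Around the kinase, 54 genes of the pathway were followed in 7 lists. Camk2n2 passed in none of the 12 comparisons. It held only 740 counts over all libraries, so small changes of it were not detectable at this depth. In mPFC NeuN+ nuclei at CFC30, 22 of the 50 listed genes that were tested passed, 16 higher and 6 lower, beside 24.7% of all genes; at CFC10, 10 were higher and 3 lower, beside 14.4%. In HIP NeuN+ nuclei 3 of 52 rose and none fell at CFC10, beside 4.86% of all genes called, and 4 rose and 1 fell at CFC30, beside 8.56%, shares near those over all genes.

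The substrates and anchors of CaMKII at the synapse gave 7 of 14 higher and none lower in mPFC NeuN+ nuclei at CFC30, with a list median of 0.14 on the log2 scale beside a median within 0.01 of 0 for all genes, of which 1701 of 12987 rose. Dlg4, which encodes the scaffold PSD-95, averaged 161.4 ± 8.8 CPM at CFC30 and 106.9 ± 6.2 CPM in naive libraries (SD, n = 3 each) and rose by 0.62 ± 0.06 (adjusted p = 2.01e-07). Grin2a, an NMDA receptor subunit gene, rose by 0.28 ± 0.04 (adjusted p = 6.67e-06). At CFC10 4 of 14 rose, beside 1063 of 12987 genes in all, among them Cacng2, the gene of the AMPA receptor partner stargazin, by 0.48 ± 0.07 (adjusted p = 4.43e-05). Dlg4 in HIP NeuN+ nuclei averaged 148.7 ± 18.1 CPM at CFC30 and 113.3 ± 5.8 CPM in naive libraries (SD, n = 4 each) and rose by 0.38 ± 0.07 (adjusted p = 0.00188), and Syn1, a synaptic vesicle protein gene, rose by 0.16 ± 0.04 (adjusted p = 0.0179).

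The other calmodulin-dependent kinases gave 3 of 9 higher and 2 of 9 lower in mPFC NeuN+ nuclei at CFC30, beside 24.7% of all genes called. Camk1g, a CaMKI isoform, averaged 59.6 ± 1.4 CPM at CFC30 and 33.2 ± 5.7 CPM in naive libraries (SD, n = 3 each) and rose by 0.86 ± 0.11 (adjusted p = 2.26e-06). Camkk1, which activates CaMKI and CaMKIV, rose by 0.74 ± 0.12 (adjusted p = 4.79e-05), and in HIP NeuN+ nuclei by 0.28 ± 0.07 (adjusted p = 0.0183). With corticosterone Camkk1 rose in GFAP+ nuclei by 0.39 ± 0.09 (adjusted p = 0.0404) and in 3X- nuclei by 0.47 ± 0.13 (adjusted p = 0.0198). In PU.1+ nuclei Eef2k, whose kinase slows translation elongation, rose by 0.55 ± 0.08 (adjusted p = 0.00022), and Camk1 fell to 88.40 ± 0.34 CPM with corticosterone, against 117.6 ± 5.8 CPM with saline (SD, n = 4 each, adjusted p = 0.000192). Camk1 also fell in mPFC NeuN- nuclei at CFC30, by 0.40 on the log2 scale (adjusted p = 0.02).

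Calcineurin is the phosphatase that calmodulin activates, and Rcan1 encodes one of its inhibitors. Rcan1 averaged 98.6 ± 2.8 CPM at CFC30 and 76.5 ± 2.4 CPM in naive mPFC NeuN+ libraries (SD, n = 3 each), at 0.39 ± 0.06 (adjusted p = 2.07e-05). It also passed at CFC10 there (0.27, adjusted p = 0.00238) and at CFC30 in NeuN- nuclei of HIP (0.32, adjusted p = 0.0223) and mPFC (0.29, adjusted p = 0.0473). With corticosterone Rcan1 reached 118.1 ± 6.7 CPM in PU.1+ nuclei, against 70.2 ± 1.3 CPM with saline (SD, n = 4 each), at 0.79 ± 0.06 (adjusted p = 2.69e-07). Its relative Rcan2 averaged 775.0 ± 49.8 CPM with corticosterone and 384.7 ± 70.8 CPM with saline in 3X- nuclei (SD, n = 4 each), and rose by 1.04 ± 0.09 (adjusted p = 8.47e-11).

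The lists of calmodulin-binding IQ proteins and of phosphatases acting on CaMKII held no call in most comparisons, and never more than 1. Only 2 or 3 of the 4 IQ genes and the 5 phosphatase genes were tested in each, beside 0.345% to 24.7% of all genes called. With so few genes these counts do not show whether the lists responded. The list of cyclases, phosphodiesterases and pumps held most of its calls in mPFC NeuN+ nuclei, with 2 of 10 tested genes higher and 1 lower at CFC10, beside 14.4% of all genes, and 3 higher and 3 lower at CFC30, beside 24.7%. Neurogranin (Nrgn), which holds calmodulin when calcium is low, rose in mPFC NeuN+ nuclei at CFC10 by 0.22 ± 0.06 (adjusted p = 0.015) and fell in NeuN+ nuclei with corticosterone, to 63.3 ± 4.6 CPM against 74.2 ± 4.6 CPM with saline (SD, n = 4 each, adjusted p = 0.0244). Among calmodulin-regulated cyclases, phosphodiesterases and pumps, Adcy1, a calcium-stimulated adenylyl cyclase, fell to 378.3 ± 23.6 CPM at CFC30 in HIP NeuN+ nuclei, against 440.0 ± 21.8 CPM in naive libraries (SD, n = 4 each, adjusted p = 0.0123), and rose with corticosterone in NeuN+ nuclei by 0.18 ± 0.04 (adjusted p = 0.00521). The calcium pump gene Atp2b2 rose in mPFC NeuN+ nuclei by 0.29 ± 0.04 at CFC10 (adjusted p = 5.92e-05) and 0.27 ± 0.04 at CFC30 (adjusted p = 7.49e-05). Of the phosphatases that act on CaMKII, Ppp1cc passed in mPFC NeuN+ nuclei at CFC30 (0.28, adjusted p = 0.00876) and Ppp2ca in 3X- nuclei with corticosterone (-0.28, adjusted p = 0.00948).

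Peaks of γH2AX were also found at genes of these lists. Among the substrate and anchor genes, Grin2b and Kalrn had a peak in both regions, and Grin2a and Gria1 had one in HIP. None of the 9 other calmodulin-dependent kinase genes and none of the 5 phosphatase genes had a peak in either region.

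Finally, the genes with the most similar pattern over the 20 groups were listed by Pearson's r of log2(mean CPM + 1), each table centred on its own mean, among 9328 genes with a mean of at least 10 CPM. The groups share fractions and libraries of one table, so r is a description. For Camk2a they were Nrip3 (r = 0.9988), Slc17a7 (0.9981), the vesicular glutamate transporter of excitatory neurons, and Camkv (0.9973). For Camk2b they were Ak5 (0.9996), Syt7 (0.9996) and Cacna1e (0.9992). Camk2d was closest to Piezo1 (0.986), a mechanically gated channel gene, Smad2 (0.979) and Tbc1d2b (0.979), and Camk2g to Whamm (0.985), Clybl (0.973) and Bmpr1b (0.968). Camk2n1 followed 2900097C17Rik (0.927), Cds2 (0.905) and Mib1 (0.887), Calm2 followed Alg2 (0.964), Fyttd1 (0.949) and 3110082I17Rik (0.945), and among the 3 closest to Calm3 were Nefl (0.943), a neurofilament gene, and Ddn (0.936).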

How the data were processed

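Nuclear total RNA and γH2AX ChIP-Seq were deposited for 88 samples. The authors trimmed the first 3 nucleotides with Trimmomatic, aligned RNA reads to GRCm38 with HISAT2, took out duplicates (Picard) and ran featureCounts on gene bodies, exons and introns together, so the deposited values are raw counts per gene and library. Versions and the strand setting are not given in the sources used here, nor how reads that fit several near-identical calmodulin or CaMKII sequences were counted. The deposited peak lists hold positions only: ChIP reads were aligned with Bowtie2, and broad peaks were called on merged replicates with MACS2. No table column was left unused.

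IDs were matched to GENCODE vM21 (53682 of 53749). Camk2d overlaps 8 annotated genes, 1 of them antisense, which together held 5 counts in all libraries, and Camk2a overlaps 2 microRNA genes at 0. Each comparison was fitted with edgeR 4.0.16 (R 4.3.3; quasi-likelihood F test, TMM scaling) on all genes whose mean FPKM exceeded 0.2 in at least 1 group, and p was adjusted by Benjamini-Hochberg over all genes tested, with a threshold of 0.05. CPM and FPKM use library totals and gene-body length. Shares of Camk2a were compared by exact two-sided permutation tests with SciPy 1.17.1. Alternatives were DESeq2 1.42.0, RLE scaling, no filter, filterByExpr, a replicate block (replicate numbers paired saline GFAP+ and 3X- libraries by their correlation, with no call changed), leaving out each replicate, keeping both identical libraries, and, chosen after seeing the data, scaling by library totals. The scripts were tested on simulated data.

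The 7 genes, the pathway lists and the marker lists were chosen with earlier results of these data known. The plots of CPM per library show all 7 genes in every group, but the text prints values for only some pairs of gene and comparison. Levels and fold changes are not printed for Camk2d in PU.1+ nuclei with corticosterone. They are also not printed for any gene but Camk2g in NeuN- nuclei after CFC. Of each list, at most the 2 genes with the smallest adjusted p per comparison are reported. Some listed genes are not reported here. Groups come from the sample labels; whether RNA replicates are separate animals is not stated in the labels, and p-values measure the spread between these libraries, which may be technical.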

Additional observations from a re-analysis of the deposited data

Results flagged for a closer look

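Among 104 sets of 4 libraries of these genes and shares, 4 held a library far from the other 3, where chance gives about 1 in 20. Camk2g was at 552.5 CPM in GFAP+ saline replicate 2, and at 456.0 to 472.2 CPM in the others. Camk2n1 and Calm2 were both high in HIP NeuN+ CFC10 replicate 2, at 18.50 CPM beside 14.10 to 14.81 CPM and at 122.8 CPM beside 95.45 to 99.34 CPM. Calm3 was at 26.10 CPM in HIP NeuN+ CFC30 replicate 4, and at 38.60 to 39.27 CPM in the others.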

How the results depend on the processing

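Of 1463 alternative values for the 79 pairs of gene and comparison that were called at least once, 1384 kept direction and side of the threshold, 24 lost the call, 51 gained one and 4 reversed. The 4 that reversed did so with scaling by library totals, a setting chosen after seeing the data: Camk2n1 for NeuN+ over NeuN- in naive HIP (-0.0427) and mPFC (-0.2315), and for NeuN+ over PU.1+ Calm3 (-0.1787) and Camk2g (-0.1785). Of the pairs never called, 117 of 1715 alternative values changed sign. Of the 7 genes, the number called moved as follows. In HIP NeuN+ at CFC10 it was 0, and 1 with DESeq2 and 2 without the FPKM filter; at CFC30 it was 1, and 2 with DESeq2, without the filter and with library totals. In HIP NeuN- at CFC30 it was 0, and 1 (Camk2g, adjusted p = 0.046) when both identical libraries were kept. In mPFC NeuN+ at CFC10 it was 2, and 4 without the filter. Without the filter it was also 1 in place of 0 in GFAP+, 4 in place of 1 in PU.1+ and 1 in place of 0 in 3X- nuclei with corticosterone. Leaving out 1 replicate gave 0 to 1 in HIP NeuN+ at CFC10, 1 to 2 at CFC30, 1 to 3 in mPFC NeuN+ at CFC10, 0 to 1 for CFC30 against CFC10, and with corticosterone 1 to 2 in PU.1+ and 0 to 1 in 3X- nuclei. The Camk2a share in HIP NeuN- at CFC10 differed by 0.139 points and by -0.187 when counts were not divided by length. Leaving out 1 replicate, share differences ran from -1.92 to 3.53 there, -0.843 to 4.46 at CFC30, -1.56 to 3.39 in mPFC NeuN- at CFC10, -0.233 to 0.127 in NeuN+, -1.12 to 2.82 in GFAP+ and -1.02 to 1.53 in 3X- nuclei with corticosterone. The causes were not tested.

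Same-numbered libraries of different conditions correlated at -0.343 to 0.501 in HIP NeuN- nuclei, where 4 of 10 matched their own number best. In mPFC NeuN+ nuclei r was -0.0297 to 0.134 (3 of 9), in mPFC NeuN- nuclei -0.0941 to 0.415 (6 of 9) and in GFAP+ nuclei 0.0836 to 0.487 (3 of 4). Elsewhere 5 of 12 matched best in HIP NeuN+ nuclei, 2 of 4 in NeuN+ nuclei with corticosterone, and 1 of 4 each in PU.1+ and 3X- nuclei. Whether the numbers pair conditions was thus not settled. Between fractions r was -0.0425 to 0.166 in HIP, where 6 of 11 libraries matched their own number best, and 0.0329 to 0.154 in mPFC, with 8 of 9. Between NeuN+ and the other populations r was -0.0337 to 0.103, with 20 of 24 best matches. The paper gated fractions and populations from the same stained nuclei, but the labels do not say which libraries share a sort. Some pairs were under 0.1, so the numbers give a hint of the pairing only. The main fits treated all libraries as independent. Only saline GFAP+ and 3X- nuclei had every pair over 0.1 (0.149 to 0.248), and there the block changed no call. With the block all 7 genes were called in every saline pair of populations and in the mPFC fractions, adding Calm3 for NeuN+ over GFAP+ (adjusted p = 0.0132) and PU.1+ over 3X- (0.0163), Camk2n1 for NeuN+ over PU.1+ (0.0166) and Camk2n1 in mPFC (0.0238). With the replicate block 1 gene was called in HIP NeuN- at CFC30 (Camk2g, adjusted p = 0.0431) and 1 in GFAP+ nuclei (Camk2n1, 0.0301), and the count over all genes was 180 in place of 51 in HIP NeuN- at CFC10, 600 in place of 352 at CFC30, 396 in place of 261 in NeuN+ corticosterone and 3 in place of 5 for the HIP CFC10 difference of fractions.

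Counts over all genes also moved. Without the filter they were 1032 for 604 in HIP NeuN+ at CFC10 and 97 for 37 at CFC30 against CFC10; 514 for 51, 914 for 352 and 213 for 25 in HIP NeuN- (CFC10, CFC30, CFC30 against CFC10); 375 for 167 in mPFC NeuN+ (CFC30 against CFC10); 716 for 254, 1471 for 870 and 504 for 104 in mPFC NeuN-; 710 for 425 in GFAP+ and 2782 for 1091 in 3X-, where the median of all genes was then 0.22. DESeq2 gave 181 for 51 and 74 for 25 in HIP NeuN-, 111 for 167 in mPFC NeuN+ (CFC30 against CFC10), 167 for 261 in NeuN+ corticosterone, and 24 for 5 and 114 for 47 in the HIP differences of fractions. filterByExpr gave 23 for 51 and 6 for 25 in HIP NeuN- and 142 for 254 in mPFC NeuN- at CFC10. Library totals gave 27 for 51 in HIP NeuN- at CFC10 and 10 for 16 in the NeuN- difference of regions at CFC30. With both identical libraries, HIP NeuN- gave 468, 930 and 43 for 51, 352 and 25. Leaving out 1 replicate, counts ran from 190 to 925 and 618 to 1247 in HIP NeuN+, 3 to 76 and 61 to 529 in HIP NeuN-, 1180 to 1859 in mPFC NeuN+ at CFC10, 28 to 334 and 402 to 1080 in mPFC NeuN-, and 181 to 326 in NeuN+ and 231 to 492 in GFAP+ corticosterone. Camk2n1 had as few as 73 counts in a library, so small changes of it were not detectable at this depth.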

Other observations

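Over the means of the 20 groups, centred within each table, Camk2a and Camk2b ran together (r = 0.986), while Camk2d ran against Camk2b (r = -0.636). Camk2g and Camk2n1 had r = 0.726, and Camk2n1 and Calm3 r = 0.838. Calm2 and Calm3 had r = 0.569. These values describe groups that share tables and fractions.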
